A study of Mus musculus with 6 samples.

Results

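The genes that build the acetylcholine receptor of muscle and hold it at the neuromuscular junction were followed from late gestation to adulthood in mouse gastrocnemius, a fast hindlimb muscle. They were 10 of the 23367 gene entries of the deposited table and were taken by symbol. The receptor subunits were alpha (Chrna1), beta (Chrnb1), delta (Chrnd), epsilon (Chrne) and gamma (Chrng). The others were the receptor tyrosine kinase MuSK (Musk), its agrin-binding partner Lrp4, its adaptor Dok7, the receptor-clustering protein rapsyn (Rapsn) and the neural cell adhesion molecule (Ncam1). All 10 were measured in every library.

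The 6 libraries covered 5 stages and were made from polyadenylated RNA of wild type FVB mice. The E18.5 library pooled several embryos of both sexes and the PN2 library pooled several males. PN14 had replicates 1 and 2, each from 1 male, while PN28 and the adult, at 22 weeks, had 1 male each. The labels name no transgene and no treatment for any library. Since 4 of the stages had a single library and each library ran on its own sequencing lane, stage, lane and the individual mice or pools cannot be told apart, and only the PN14 pair showed the spread between mice. Between 125402932 and 157868359 counts fell on genes in a library, so that a count of 3 was worth 0.0190 to 0.0239 CPM, the count scaled to library size. The lowest count of any of the 10 genes was 35, for Chrng in the adult.

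The labelled tissue was checked with 10 fibre markers, none of them at 0 in all libraries, whose summed level was 22230 at E18.5 and 95746 in the adult in FPKM, a level scaled to gene length and library size. Other cells were present too. The summed level of 10 Schwann cell markers was 223 FPKM in PN14 replicate 1 and 867 FPKM in PN14 replicate 2, against 108 to 405 FPKM in the other 4 libraries. The defining Schwann gene Sox10 was at 1.63 and 4.13 FPKM in PN14 replicates 1 and 2, so replicate 2 stood apart from replicate 1 in this respect. The defining motor neuron genes Chat, Slc18a3 and Mnx1 were at 0 in all 6 libraries.

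The muscle acetylcholine receptor is a ligand-gated cation channel made of alpha, beta and delta subunits together with either gamma or epsilon. In fetal muscle the gamma-containing receptor is spread along the fibre, and after birth an epsilon-containing receptor with briefer openings and larger conductance takes its place under the nerve terminal. Agrin released by the motor axon binds Lrp4 and activates MuSK, Dok7 is needed for that activation, and rapsyn anchors the receptors in dense clusters. NCAM covers the surface of immature and denervated fibres and of satellite cells, and is restricted in innervated muscle.

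The subunit genes lie on 3 chromosomes (coordinates in NCBIM37, the assembly also called mm9, from GENCODE M1). Chrnd (chr1:89087227-89096644) and Chrng (chr1:89102386-89108410) are neighbours on the plus strand of chromosome 1, with 5741 bases between them. Chrne (chr11:70428385-70432718) and Chrnb1 (chr11:69597538-69609445) lie on the minus strand of chromosome 11, and Chrna1 (chr2:73401272-73418395) on the minus strand of chromosome 2. The annotation places 4930544D05Rik opposite Chrne over 1043 bases, and whether strand was used in counting is not given in the sources used here, so their reads may be confused. The counts given to 4930544D05Rik ran from 1 to 97 per library, against 127 to 5678 for Chrne. Gm11149, opposite Ncam1 over 44609 bases, had 0 to 4 counts. Gm13778, opposite Rapsn over 1638 bases, and Gm17616, opposite Ncam1 over 229 bases, had no entry of their own in the deposited table. Their reads could therefore not be counted apart.

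For Chrng and Chrna1, which fell from PN2 to PN14, and Chrne, which rose, the 250 bases before the start are shown for comparison. They are RefSeq sequence of the GRCm38.p6 assembly, a different build from the coordinates above, at chr1:87205561-87205810 on the plus strand, chr2:73580339-73580588 on the minus strand and chr11:70619195-70619444 on the minus strand. Capitals mark the E-box CANNTG, the core bound by myogenic helix-loop-helix factors, and the N-box CCGGAA, the core bound by Ets factors such as GABP, each searched on both strands.
Chrng: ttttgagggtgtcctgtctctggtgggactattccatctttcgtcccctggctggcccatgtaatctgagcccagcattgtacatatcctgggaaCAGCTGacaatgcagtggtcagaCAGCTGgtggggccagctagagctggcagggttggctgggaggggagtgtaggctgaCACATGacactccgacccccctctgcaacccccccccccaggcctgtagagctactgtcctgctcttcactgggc
Chrna1: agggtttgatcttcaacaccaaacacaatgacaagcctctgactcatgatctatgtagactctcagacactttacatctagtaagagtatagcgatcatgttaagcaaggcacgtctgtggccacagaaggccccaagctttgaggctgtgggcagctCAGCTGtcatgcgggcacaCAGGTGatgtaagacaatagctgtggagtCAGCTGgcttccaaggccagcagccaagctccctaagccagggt
Chrne: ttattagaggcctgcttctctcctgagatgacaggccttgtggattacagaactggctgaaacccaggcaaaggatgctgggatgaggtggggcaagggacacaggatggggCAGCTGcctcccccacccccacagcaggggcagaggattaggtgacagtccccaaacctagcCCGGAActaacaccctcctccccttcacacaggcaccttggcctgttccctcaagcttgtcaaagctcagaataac
The Chrng window held 3 E-boxes, starting 155, 132 and 75 bases before the start, and no N-box. The Chrna1 window also held 3 E-boxes, starting 92, 73 and 44 bases upstream. The Chrne window held 1 E-box starting 138 bases upstream and 1 N-box starting 76 bases upstream, and the motifs did not overlap. Of the 6 genes with a window, Chrnb1 and Musk likewise held 3 E-boxes, Dok7 held 1 in 1 of its windows and none in the other, and only Chrne held an N-box. Among all 32851 mouse windows of this length, 12.2% held at least 3 E-boxes, 66.2% held at least 1 E-box, 12.03% held an N-box and 6.75% held both. These matches describe the letters and not occupied sites.

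Gamma and epsilon exchanged places between PN2 and PN14. Chrng, the fetal subunit, was at 83.6 FPKM in the E18.5 library, 56.1 in the PN2 library, 0.89 and 1.92 in the PN14 pair, 0.60 in the PN28 mouse and 0.13 in the adult mouse. Chrne, the adult subunit, was at 0.52 FPKM in the E18.5 library, 2.18 in the PN2 library, 22.7 and 24.5 in the PN14 pair, 10.5 in the PN28 mouse and 15.4 in the adult mouse. Every library from PN14 on lay below both earlier libraries for Chrng and above both for Chrne. In this bulk tissue, fewer cells or nuclei that express a gene cannot be told apart from less RNA in each.

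**Figure D1:**
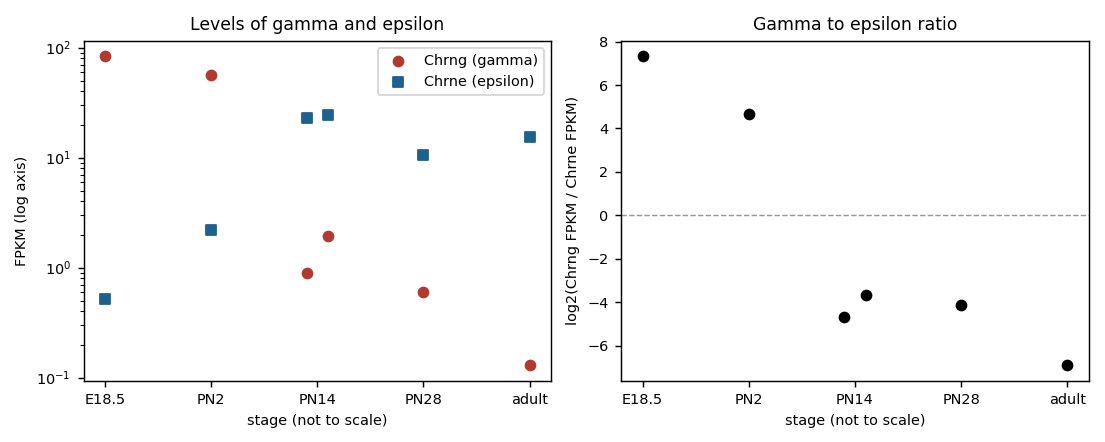
Levels of Chrng and Chrne in FPKM on a log axis (left) and log2 of their ratio (right), with 1 point per library and both PN14 replicates side by side. The ratio falls from 7.33 at E18.5 to -6.89 in the adult on the log2 scale and crosses 0, the dashed line of equal levels, between PN2 and PN14.

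Set against each other within a library, the levels gave a gamma to epsilon ratio that needs no scaling between libraries. The ratio of FPKM values was 161 at E18.5 and 25.7 at PN2. At PN14 it was 0.0392 and 0.0783 in the replicates, or 0.0587 ± 0.0277 (SD, n = 2), at PN28 it was 0.0573, and in the adult 0.00843, where epsilon was 119 times gamma. The PN28 library lay between the PN14 replicates, so PN14 and PN28 did not differ beyond the spread of the pair, whereas E18.5, PN2 and the adult were far outside it.

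As a share of the reads given to either gene, gamma made up 99.5% at E18.5 (95% Wilson interval 99.4 to 99.6%) and 96.9% at PN2 (96.6 to 97.2%). It made up 4.57% in PN14 replicate 1 (4.002 to 5.21%) and 8.70% in replicate 2 (8.02 to 9.43%). At PN28 the share was 6.52% (5.63 to 7.54%) and in the adult 1.02% (0.736 to 1.42%), from 35 Chrng counts against 3387 for Chrne. The intervals cover counting error only. The PN14 intervals did not overlap each other, so the libraries of this stage differed by more than counting error.

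The change from PN2 to PN14 was tested in a fit across all genes (edgeR quasi-likelihood, Benjamini-Hochberg adjustment), in which a gene passed when its adjusted p was under 0.05 and it changed at least 2-fold. Chrng fell by 4.69 on the log2 scale (SE 0.34, 25.8-fold, edgeR adjusted p = 0.00301) and Chrne rose by 4.10 (SE 0.22, 17.1-fold, adjusted p = 0.00228). Of the 10 genes, 5 passed, 1 higher and 4 lower at PN14, where 23.0% of the 16882 genes tested passed, 11.8% higher and 11.2% lower. Counted without a test, 5 of the 10 differed at least 2-fold against 27.0% of genes with at least 1 CPM. The same fit scaled the libraries with TMM factors, and with library size alone the median over all genes was, on the log2 scale, -0.66 over this interval, -0.25 for PN14 to PN28, -0.15 for PN28 to adult and -1.08 for E18.5 to adult, where TMM left it between -0.05 and -0.01.

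Chrnd, the delta subunit common to both receptor forms, was high in the early libraries and low from PN14 on. Its level was 39.2 FPKM in the E18.5 library, 31.0 in the PN2 library, 2.54 and 4.47 in the PN14 pair, 1.88 in the PN28 mouse and 0.87 in the adult mouse. The adult was 45.05-fold below E18.5 in FPKM and 22.1-fold below it in the fit with TMM. Both early libraries were above all later ones. From PN2 to PN14 it fell by 2.52 on the log2 scale (SE 0.25, edgeR adjusted p = 0.00431).

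Chrna1, which carries the main part of the acetylcholine binding site, was highest in the PN2 library. It was at 27.4 FPKM in the E18.5 library, 49.6 in the PN2 library, 11.01 and 16.6 in the PN14 pair, 9.72 in the PN28 mouse and 6.98 in the adult mouse. The libraries from PN14 on were again below both earlier ones. It fell by 1.20 on the log2 scale from PN2 to PN14 (SE 0.21, edgeR adjusted p = 0.0124), while the difference before it, 0.86 from E18.5 to PN2 (SE 0.25), did not pass (adjusted p = 0.517). From E18.5 to adult the change was -0.95 (SE 0.25, edgeR adjusted p = 0.0225), just short of the fold required, and it passed with library size alone at -1.97.

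Chrnb1, the beta subunit, stayed high for longer. It was at 41.1 FPKM in the E18.5 library, 56.0 in the PN2 library, 58.4 and 68.0 in the PN14 pair, 38.5 in the PN28 mouse and 18.8 in the adult mouse. The PN14 libraries were the highest and the adult the lowest. Its fitted change from PN2 to PN14 was 0.83 (SE 0.20, edgeR adjusted p = 0.0279), short of the fold required, and with library size alone it was 0.18 (adjusted p = 0.675). From E18.5 to adult it was -0.10 with TMM (SE 0.22, edgeR adjusted p = 0.712) and -1.13 with library size, where it passed.

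**Figure D2:**
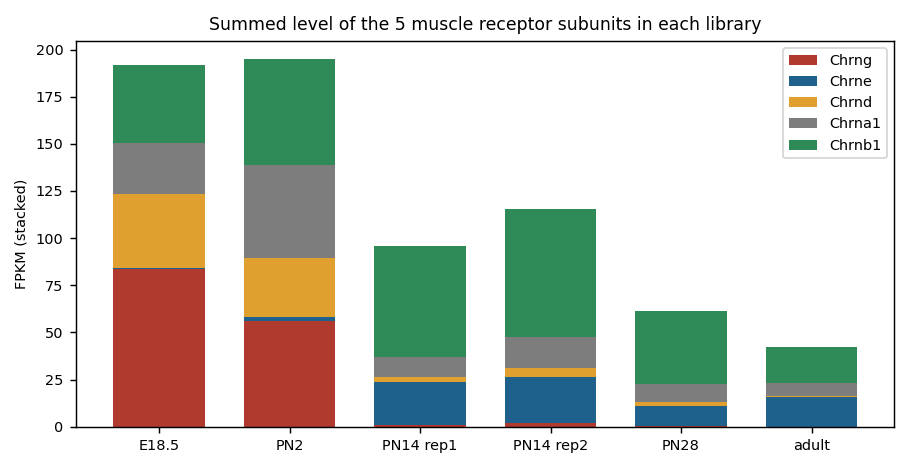
Stacked FPKM of the 5 receptor subunits in each library, with bars starting at 0. The sum is 192 FPKM at E18.5 and 195 at PN2 and 42.2 in the adult, the red gamma segment is under 2 FPKM after PN2, and the green beta segment is the largest from PN14 on.

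The subunits did not keep fixed proportions at the RNA level. The 5 subunits summed to 192 FPKM in the E18.5 library, 195 in the PN2 library, 95.6 and 116 in the PN14 pair, 61.2 in the PN28 mouse and 42.2 in the adult mouse. Gamma was the most abundant at E18.5 and PN2, with 43.6% and 28.8% of that sum, and the least abundant in every library from PN14 on. Beta was the most abundant from PN14 on, with 61.1% and 58.9% in the PN14 pair, 62.9% at PN28 and 44.5% in the adult.

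Delta and beta are both present in either receptor form, and the ratio of their RNA levels moved as well. Chrnd over Chrnb1 was 0.954 at E18.5 and 0.554 at PN2. It was 0.0435 and 0.0657 in the PN14 pair, 0.0488 at PN28 and 0.0463 in the adult, so that all 4 later libraries lay close together and below the early ones. Gamma and epsilon together were 2.15 times delta at E18.5 and 1.88 times delta at PN2, and between 5.89 and 17.9 times delta in the later libraries.

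**Figure D3:**
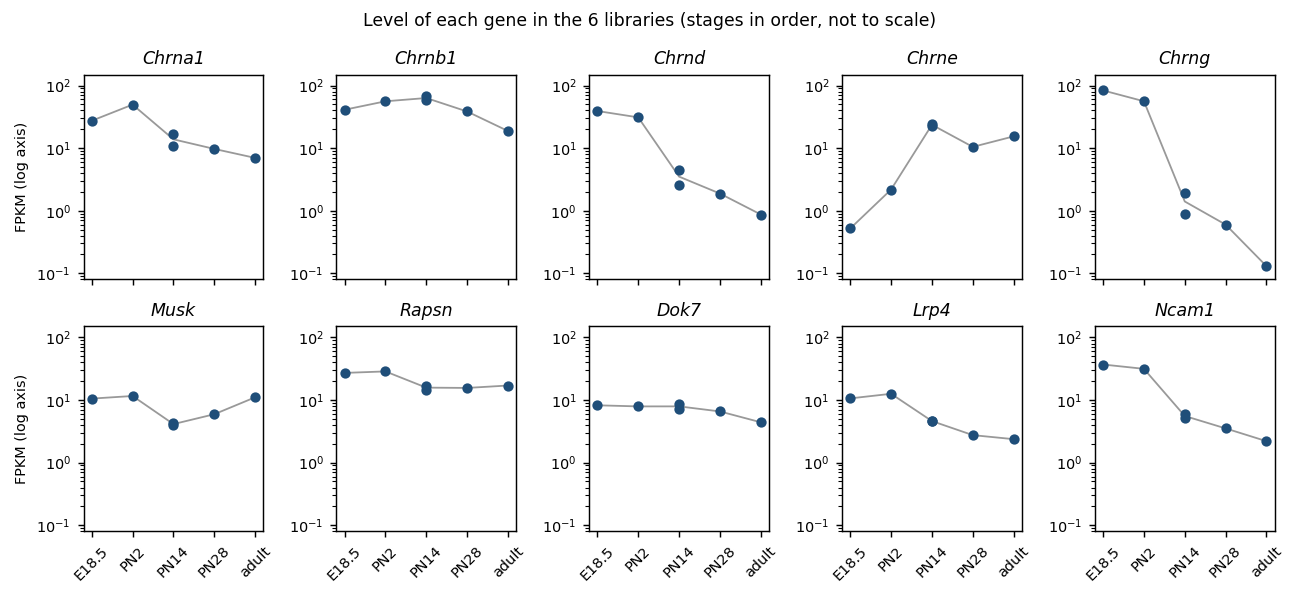
FPKM on a log axis of the 10 genes, 1 point per library, with a line through the stage means. Chrng, Chrnd and Ncam1 drop between PN2 and PN14, Chrne climbs, and Rapsn and Dok7 stay within a 2-fold band over all 6 libraries.

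Among the genes of the agrin pathway, Musk was lowest at PN14. It was at 10.5 FPKM in the E18.5 library, 11.6 in the PN2 library, 3.95 and 4.30 in the PN14 pair, 5.93 in the PN28 mouse and 11.1 in the adult mouse. In FPKM both PN14 libraries were below all others, and the adult lay at the level of the early libraries. The fitted log2 fold change was -0.81 from PN2 to PN14 (SE 0.17, edgeR adjusted p = 0.0196), 0.76 from PN14 to PN28 (SE 0.17, adjusted p = 0.415) and 1.05 from PN28 to adult (SE 0.20, adjusted p = 0.0794), and none of these passed both thresholds. With library size alone the change from PN2 to PN14 was -1.47 and passed (adjusted p = 0.000129 with edgeR). From E18.5 to adult Musk rose by 1.14 (SE 0.20, edgeR adjusted p = 0.00586), a call that rests on TMM scaling, since with library size alone the change was 0.12 (adjusted p = 0.816).

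Lrp4, the agrin receptor, was lower in the adult than at E18.5. It was at 10.6 FPKM in the E18.5 library, 12.6 in the PN2 library, 4.57 and 4.65 in the PN14 pair, 2.75 in the PN28 mouse and 2.37 in the adult mouse. The early libraries were above all later ones. From PN2 to PN14 the log2 fold change was -0.81 (SE 0.18, edgeR adjusted p = 0.0233), short of the fold required, and from E18.5 to adult Lrp4 fell by 1.18 (SE 0.22, adjusted p = 0.00656). With library size alone the PN2 to PN14 change was -1.47 and passed (edgeR adjusted p = 3.55e-05).

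Dok7, the MuSK adaptor, had a narrow range in FPKM. Its level was 8.24 FPKM in the E18.5 library, 7.91 in the PN2 library, 7.25 and 8.59 in the PN14 pair, 6.57 in the PN28 mouse and 4.41 in the adult mouse, a 1.95-fold range. In FPKM the PN14 replicates enclosed the early values and the adult was lowest, whereas in TMM-normalized CPM the PN14 replicates, at 21.0 and 20.8, and the adult, at 15.1, were above the early libraries, at 13.8 and 13.3. The fitted change from PN2 to PN14 was 0.66 (SE 0.18, edgeR adjusted p = 0.0384), below the fold required and at 0.0041 with library size alone. From E18.5 to adult it was 0.12 with TMM (SE 0.20, edgeR adjusted p = 0.621) and -0.90 with library size.

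Rapsn, the clustering protein, kept a similarly narrow range of 1.98-fold. It was at 27.1 FPKM in the E18.5 library, 28.7 in the PN2 library, 14.5 and 17.1 in the PN14 pair, 15.6 in the PN28 mouse and 17.1 in the adult mouse. In FPKM the early libraries were above the later ones, which overlapped with each other. No comparison passed, and the fitted change from E18.5 to adult was 0.36 with TMM (SE 0.19, edgeR adjusted p = 0.161) and -0.67 with library size.

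Per unit of length, Rapsn was the most abundant of the 4 clustering genes in every library. Lrp4 and Musk followed at E18.5 and PN2, at nearly equal levels at E18.5, with Dok7 last. At PN14 Dok7 came second and Musk last, close behind Lrp4. In the adult Musk came second and Lrp4 last. The order of the other 3 genes thus changed while rapsyn stayed on top.

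Ncam1, the adhesion molecule, fell with gamma and delta. Its level was 37.0 FPKM in the E18.5 library, 31.5 in the PN2 library, 5.11 and 6.01 in the PN14 pair, 3.52 in the PN28 mouse and 2.20 in the adult mouse. Both early libraries were well above every later one. It fell by 1.87 on the log2 scale from PN2 to PN14 (SE 0.17, edgeR adjusted p = 0.00377) and fell by 3.14 from E18.5 to adult (SE 0.22, adjusted p = 0.00123).

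**Figure D4:**
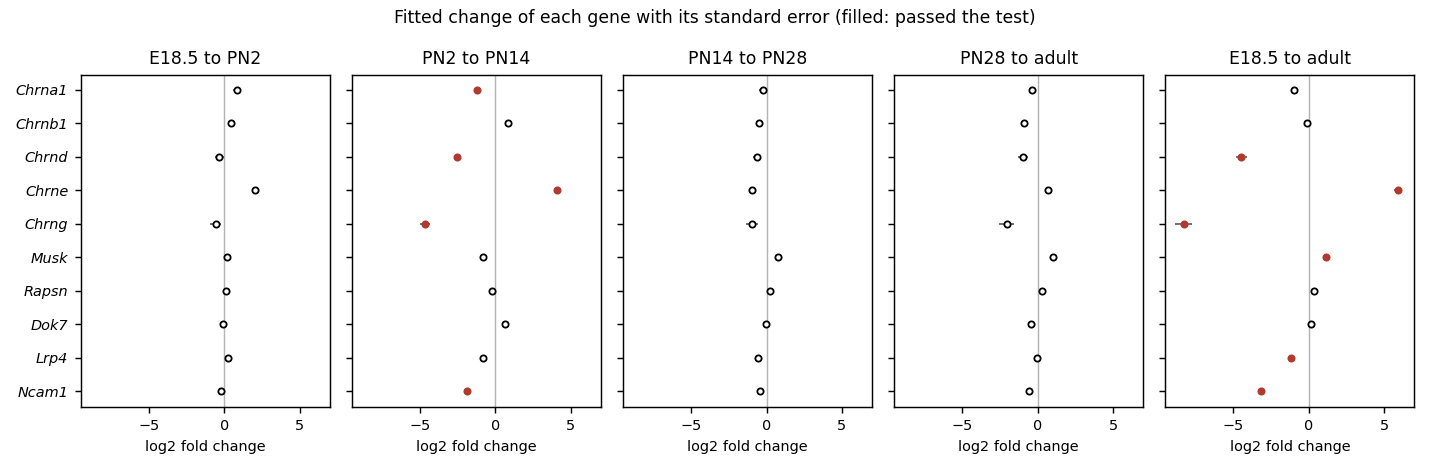
Fitted log2 fold change of each gene with its SE in the 4 consecutive intervals and from E18.5 to adult, with filled red points for genes that passed the test. From PN2 to PN14 5 genes pass, from E18.5 to adult 6 pass, and none passes in the other 3 intervals. The Musk call from E18.5 to adult is lost with library size alone.

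From E18.5 to PN2 none of the 10 genes passed with edgeR, where 0.0296% of all genes did. Chrne had the largest difference, 2.06 on the log2 scale (SE 0.22), with an edgeR adjusted p of 0.115, and it was the 1 gene at least 2-fold apart without a test, against 3.44% of all genes over 1 CPM. DESeq2 and edgeR's exact test each called 1 gene here, Chrne, and the share of all genes that either test called was not counted.

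From PN14 to PN28 none of the 10 passed with edgeR, against 0.0178% of all genes, and DESeq2 and the exact test called none. Chrng had a log2 fold change of -0.96 (SE 0.37, edgeR adjusted p = 0.586) and Chrne one of -0.94 (SE 0.18, adjusted p = 0.342). Without a test none differed at least 2-fold, against 3.30% of genes. Without PN14 replicate 1 the Chrng difference was -1.26, and without replicate 2 that of Chrne was -1.01, so that 1 gene was at least 2-fold apart in each case. Chrng was 2.16 times, Chrnd 1.76 times and Chrna1 1.51 times higher in FPKM in replicate 2 than in replicate 1, whereas the other 7 genes differed by 1.02 to 1.18 times.

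From PN28 to adult none passed with edgeR, against 0.521% of all genes. Chrng had a log2 fold change of -2.06 (SE 0.49, edgeR adjusted p = 0.117) on 167 and 35 counts. Chrng and Musk were the 2 genes at least 2-fold apart without a test, against 10.2% of all genes. DESeq2 and the exact test each called both, and the share of all genes that either test called was not counted.

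From E18.5 to adult 6 of the 10 passed, 2 higher and 4 lower, where 44.9% of all genes passed, 21.4% higher and 23.6% lower (7.98% and 45.6% with library size alone). The same number differed at least 2-fold without a test, against 49.6%. Chrng fell by 8.29 on the log2 scale (SE 0.55, edgeR adjusted p = 0.00123), a 312-fold change with TMM and 643-fold in FPKM. Chrne rose by 5.91 (SE 0.25, adjusted p = 0.000713) and Chrnd fell by 4.46 (SE 0.35, adjusted p = 0.00123). This comparison shares its libraries with the intervals above and is not separate evidence.

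Results at PN14 were also taken without either replicate, as differences of log2 normalized CPM with no test. From PN2 to PN14 the Chrng difference was -4.71 with both replicates, -4.30 without replicate 1 and -5.11 without replicate 2. The Chrnd difference was -2.53, -2.26 and -2.81, that of Chrna1 -1.21, -1.04 and -1.38, that of Ncam1 -1.87, -1.86 and -1.87, and that of Chrne 4.04, 3.96 and 4.11. These 5 genes were at least 2-fold apart in every case.

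Some markers of precursor cells fell over the same interval. The summed level of 6 satellite cell and myoblast markers was 85.6 FPKM in the E18.5 library, 79.6 in the PN2 library, 17.2 and 25.5 in the PN14 pair, 10.99 in the PN28 mouse and 7.72 in the adult mouse. From PN2 to PN14 3 of the 6 passed, all lower (Msc, Myf5 and Cdh15), where 11.2% of all genes passed as lower. The defining gene Pax7 had a log2 fold change of -0.82 and did not pass (edgeR adjusted p = 0.0508), and Calcr and Chrdl2 were at 0.09 and 0.04. With library size alone 4 of the 6 passed, all lower, where 29.4% of all genes passed as lower. None of the 6 was at 0 in all libraries, and the defining genes Pax7 and Myf5 were 1.55 and 1.96 times higher in PN14 replicate 2 than in replicate 1. Their part in the fall of Chrng, Chrnd, Chrna1 and Ncam1 was not tested.

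Schwann cell genes moved as well, with 3 of 10 lower and 7 not passing from PN2 to PN14, where 11.2% of all genes passed as lower. Ngfr fell by 2.91, Foxd3 fell by 1.91 and Erbb3 fell by 1.67 on the log2 scale. With library size alone 7 of the 10 passed as lower, where 29.4% of all genes did. None of the 10 was at 0 in all libraries. Their part in the results was not tested. Of 10 fibre markers 3 rose (Myh1 by 5.77, Actn3 by 3.998 and Cacna1s by 1.54), where 11.8% of all genes passed as higher. The 7 that did not pass had positive fitted changes, from 0.67 for Des to 7.09 for Myh4 (edgeR adjusted p from 0.0832 to 0.467). With library size alone 7 rose, without Cacna1s at 0.86, where 5.06% of all genes passed as higher.

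Other genes of the junction were described from lists, each read beside the 23.0% of all genes that passed from PN2 to PN14 and the median of -0.01 over all genes. The list genes named for a change had edgeR adjusted p-values from 0.00389 to 0.0492, and with library size alone each kept its direction but not always its call. That scaling, applied to the lists after seeing the data, moved the share of all genes that passed to 5.06% higher and 29.4% lower, so its counts are given beside each list.

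**Figure D5:**
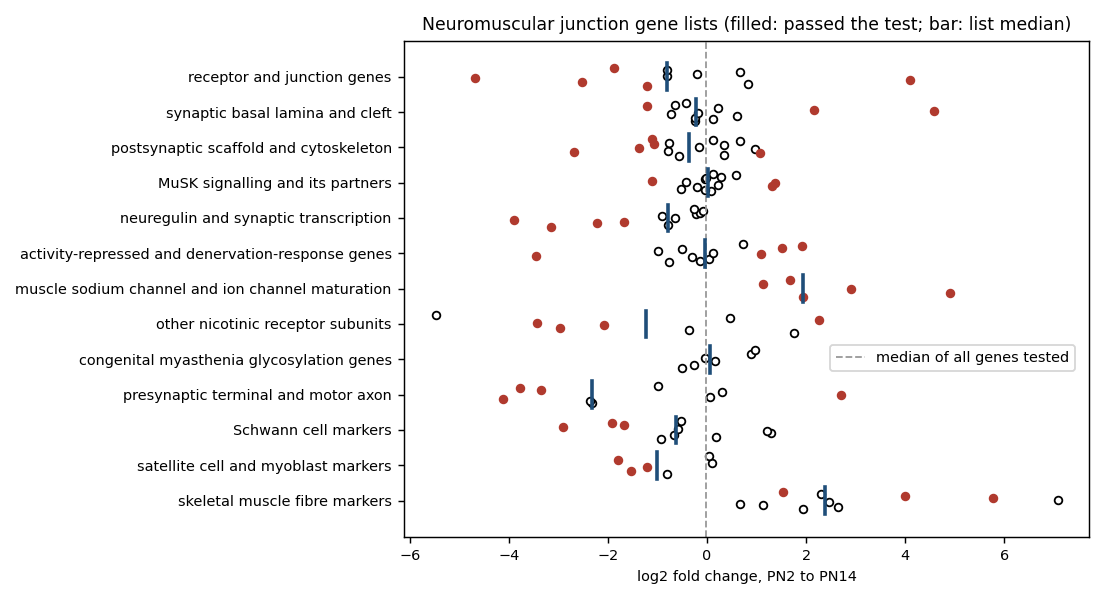
Log2 fold change from PN2 to PN14 of the tested genes of each list, 1 point per gene, filled red where the gene passed, with a blue bar at the list's median and a dashed line at the median of all genes. All 5 channel genes lie to the right and passed with TMM scaling, 3 of them also with library size alone, and the neuregulin list holds 4 genes that fell and none that rose.

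In the synaptic basal lamina and cleft, 3 of 12 genes passed, 2 higher and 1 lower, with a median of -0.21. The collagen IV chains Col4a3 and Col4a4 rose by 4.57 and 2.16 on the log2 scale, and Col13a1, a transmembrane collagen of the junction, fell by 1.22. Col4a3 was low throughout, at 0.02 FPKM at PN2 and 0.28 and 0.29 at PN14. Scaled by library size, 2 genes rose and 4 fell.

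Of 14 scaffold and cytoskeleton genes, 1 rose and 4 fell, with a median of -0.36. Sntb1 (beta-1-syntrophin) fell by 2.69, Dtnb (beta-dystrobrevin) fell by 1.37 and Nes, encoding the intermediate filament protein nestin, fell by 1.12. None rose and 7 fell when scaled by library size.

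Of 14 genes of MuSK signalling, 2 rose and 1 fell. Dnaja3 (Tid1), a MuSK-binding chaperone, rose by 1.37, the kinase Pak1 rose by 1.32 and the kinase Fyn fell by 1.11. The median was 0.02 with TMM and -0.63 with library size. Under that scaling 3 genes fell and none rose, since Dnaja3 was at 0.71 and Pak1 at 0.69.

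The neuregulin and synaptic transcription list held 4 of 11 genes that fell and none that rose, with a median of -0.80. The receptor kinase genes Erbb4 and Erbb2 had log2 fold changes of -3.90 and -2.23, and the ligand gene Nrg1 fell by 3.15 on the same scale. Erbb2 was at 18.9 FPKM at PN2 and 1.88 and 3.32 at PN14, whereas Nrg1 was at 0.20 at PN2 and 0.01 and 0.02 at PN14. Erbb3 was the remaining gene and was counted with the Schwann cell markers too. By library size 7 genes fell and none rose.

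Of 12 genes known to be held down by activity or raised on denervation, 3 rose, 1 fell and 8 did not pass, with a median of -0.05. The ubiquitin ligases Trim63 and Fbxo32 rose by 1.92 and 1.51 and Gadd45a by 1.09. By library size 1 gene rose, Trim63, and 3 fell, with Fbxo32 at 0.82 and Gadd45a at 0.42.

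All 5 channel genes of mature muscle rose with TMM, with a median of 1.93. Scaled by library size, 3 rose and the median was 1.25, with Kcnj2 at 0.50 and Kcnj11 just short of the fold required. The chloride channel gene Clcn1 rose by 2.90 and Scn4a, the adult muscle sodium channel, by 1.93. Scn4a was at 16.4 FPKM at PN2 and 45.6 and 32.2 at PN14, and reached 99.2 in the adult.

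Nicotinic subunits outside muscle type were low, with a summed level of at most 8.65 FPKM in any library. Of 11, 8 were tested, 1 rose and 3 fell, with a median of -1.23. Chrna9 fell by 3.44, from 4.88 FPKM at PN2 to 0.10 and 0.49 at PN14, and Chrna7 fell by 2.09, from 0.55 to 0.09 and 0.07. Chrna10 rose by 2.26, from 0.44 FPKM to 1.71 and 0.92. Chrna5 passed as lower on levels of 0.05 FPKM at PN2 and 0.00 in both PN14 replicates, too few counts for a fold change. The library size scaling gave 1 that rose and 4 that fell.

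None of 6 glycosylation genes linked to congenital myasthenia passed, with a median of 0.06 with TMM and -0.59 with library size, where 1 fell. Of 12 genes of the motor axon and terminal, 9 were tested, 1 rose and 3 fell. Vamp1 rose by 2.71, while Syt1, Nefm and Nefl had log2 fold changes of -4.13, -3.78 and -3.36, each from at most 1.11 FPKM at PN2. Under library size scaling 1 rose and 6 fell.

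From E18.5 to adult with TMM, where 44.9% of all genes passed, the channel list had 5 of 5 higher and the neuregulin list 8 of 11 lower with none higher. The basal lamina list had 2 higher and 6 lower of 12, the scaffold list 4 and 5 of 14, MuSK signalling 2 and 2 of 14, and the activity and denervation list 6 and 2 of 12. The other nicotinic subunits had 2 higher and 4 lower of 8, glycosylation 1 and 1 of 6, the motor axon 1 and 3 of 9, Schwann cells 2 and 3 of 10, satellite cells 0 and 5 of 6, and fibre markers 5 and 0 of 10.

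The genes whose pattern over the 6 libraries was most like that of Chrng, by Pearson's r of log2(FPKM + 0.1) among 12848 genes, were Slc36a4, Vps37d and Tnnt2, the cardiac troponin T gene expressed in immature skeletal muscle, each with r = 0.9998. Tnnt2 was at 314 FPKM in the E18.5 library, 222 in the PN2 library, 9.79 and 15.8 in the PN14 pair, 7.80 in the PN28 mouse and 3.06 in the adult mouse. With 4813 genes at r over 0.95, a shape high in 2 early libraries and low in 4 later ones was common in FPKM. How many genes share it with TMM scaling was not counted. From E18.5 to adult 45.6% of all genes passed as lower with library size and 23.6% with TMM (7.98% and 21.4% as higher). For Chrne the nearest were BC004004 (r = 0.998), 4632428C04Rik (r = 0.994) and Abra (r = 0.993), with 303 genes over 0.95. Pearson's r compares the shape of a change and not its size. BC004004 ran only from 16.2 FPKM at E18.5 to 29.5 in PN14 replicate 2, where Chrne ran from 0.52 to 24.5. Slc36a4 ran from 6.76 FPKM at E18.5 to 0.78 in the adult, where Chrng ran from 83.6 to 0.13. Abra, an actin-binding protein of muscle, was at 11.8 FPKM in the E18.5 library, 31.4 in the PN2 library, 109 and 104 in the PN14 pair, 81.1 in the PN28 mouse and 85.6 in the adult mouse. All points come from the same 6 libraries, so these correlations are descriptions only.

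Among the 10 genes themselves, r with Chrng was 0.999 for Chrnd, 0.998 for Ncam1, 0.973 for Lrp4, 0.943 for Chrna1 and 0.920 for Rapsn. It was 0.688 for Dok7, 0.452 for Musk, 0.422 for Chrnb1 and -0.879 for Chrne. These values of r use FPKM, with no further scaling between libraries, and were not computed with TMM. In TMM-normalized CPM Rapsn was highest in the adult, at 37.5, against 29.3 at E18.5 and 31.0 at PN2.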

How the data were processed

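Polyadenylated RNA from mouse gastrocnemius was sequenced at 5 stages. Reads were aligned by the authors with TopHat 2.0.5 to the mm9 genome, and RSEM was used for counting over RefSeq genes. The RSEM version is not given in the sources used here. The expected counts that the authors deposited are not normalized. The FPKM values they deposited are scaled to gene length and library size, to 2 decimals, with no further scaling between libraries. Of the entries, 27 carry symbols turned into dates, and none of these was used by name.

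The expected counts were rounded and fitted with edgeR 4.0.16 in R 4.3.3 (filterByExpr with stage as group, 16882 genes kept, TMM, glmQLFit and glmQLFTest, 6 libraries in 1 fit), with Benjamini-Hochberg adjustment over all genes tested. The PN14 pair gave the 1 residual degree of freedom (common biological coefficient of variation 0.188, median prior degrees of freedom 4.86), so the other stages are assumed to vary as PN14 does. Differences without a test used log2(CPM + 0.1) after TMM, for genes reaching 1 CPM in either stage, with the PN14 replicates averaged. The gamma to epsilon ratio used FPKM, and shares carry 95% Wilson intervals.

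Named genes were the 10 members, up to 3 genes in each direction per list among those that passed from PN2 to PN14, and the 3 genes most correlated with Chrng and with Chrne. Of the list genes this rule selects, 3 are not reported here by name and stay in the counts. Members and lists were chosen with earlier results of these data known. Alternatives were library size or DESeq2 size factors, DESeq2 1.42.0 (Wald test), edgeR's exact test, leaving the filter out or asking for a mean of 1 CPM, a pseudocount of 1, no floor, and either PN14 replicate left out. The differences of single genes without a PN14 replicate, and library size for the lists, were chosen after seeing the data. The fit was tested on simulated data. Coordinates came from GENCODE M1 (NCBIM37) and upstream sequences from RefSeq (GRCm38.p6), which held windows for 6 of the 10 genes. Figures were drawn with matplotlib 3.10.9.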

Additional observations from a re-analysis of the deposited data

How the results depend on the processing

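No paired analysis was possible because only PN14 has replicate numbers. Among the fitted log2 fold changes recomputed under the alternatives, 280 kept their direction and their side of the threshold, 16 came to pass, 1 no longer passed and 3 reversed. The reversals came with library size in place of TMM, where Rapsn was at -0.0165 from PN14 to PN28 and -0.67 from E18.5 to adult and Dok7 at -0.90 from E18.5 to adult. From E18.5 to PN2, 1 gene (Chrne) passed with library size, DESeq2's Wald test, edgeR's exact test or no filter, with adjusted p from 1.35e-07 (exact test) to 0.186 (mean of at least 1 CPM) over all alternatives. From PN28 to adult, 1 gene (Chrng) passed with library size, and 2 (Chrng and Musk) with DESeq2's Wald test, the exact test or no filter, with adjusted p over the alternatives from 0.000163 to 0.144 for Chrng and from 0.0083 to 0.259 for Musk. For both of these intervals the share of all genes passing under the alternatives was not counted. From PN2 to PN14 between 5 and 7 genes passed and from E18.5 to adult between 6 and 7, with Musk and Lrp4 added at PN14 by library size. With library size 7 passed in both comparisons. Under it 5.06% of all genes passed as higher and 29.4% as lower from PN2 to PN14. From E18.5 to adult the shares were 7.98% and 45.6%. Shares under the other alternatives were not counted. The cause of the shifts in these calls was not tested. At least 2-fold apart from PN14 to PN28 were 2 genes with library size and 1 without either PN14 replicate (Chrng without replicate 1, Chrne without replicate 2), and from PN28 to adult 1 with a pseudocount of 1. The log2 change of the gamma to epsilon ratio from E18.5 to adult was -14.22, or -13.15 with 0.1 FPKM added to both genes, and from PN2 to PN14 it was -8.86, or between -9.36 and -8.36 without a PN14 replicate. All 40 log2 differences of single genes without a PN14 replicate, an alternative chosen after seeing the data, kept their direction. Since the main value averages the pair, the size of that move is set by the spread of the pair. With 1 residual degree of freedom and single libraries at 4 stages, a change that did not pass is not shown to be absent.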
